A study of Mus musculus with 16 samples.

Results

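Retinoid handling genes and Tgm2 were followed in laser-captured cecal epithelium over 4 colonization states. The set comprised 9 genes, namely Rbp2, Rdh7, Rdh10, Dhrs3, Aldh1a1, Aldh1a3, Rara, Rarg and Tgm2. All probe sets annotated to them on the mouse whole-genome GeneChip were taken, 18 of the 45101 on the table. The genes were chosen by their measured signals and fold changes in these same GeneChips, together with their known roles, so their values are a description and no test of them is given. Adult NMRI mice, an inbred strain reared germ-free in isolators on an autoclaved polysaccharide-rich chow, were colonized for 10 days with both Bacteroides thetaiotaomicron and Bifidobacterium longum (Bt/Bl), with B. thetaiotaomicron alone (Bt) or with B. longum alone (Bl), or were left germ-free (GF). B. thetaiotaomicron is a gut symbiont that digests polysaccharides, and B. longum is a species used as a probiotic. RNA from the dissected epithelium of 4 mice was pooled in each state and amplified in 2 separate reactions, and each amplification was hybridized to 1 GeneChip, giving 8 GeneChips in all. The duplicates of a state therefore came from 1 pool, their spread is technical, and every difference is one between pools.

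Vitamin A enters the absorptive cells of the intestine as retinol or as carotenoids. Inside the cell, Rbp2 binds retinol, retinol dehydrogenases such as Rdh10 oxidize it to retinal, and Dhrs3 reduces retinal back to retinol. Retinal dehydrogenases of the Aldh1a family convert retinal to retinoic acid, which binds the nuclear receptors Rara and Rarg on target genes. Tgm2 encodes tissue transglutaminase, an enzyme that crosslinks proteins, and its gene is a long-known target of retinoic acid. In the gut, retinoic acid is best known for its part in mucosal immunity, where it acts on lymphocytes and on IgA responses.

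The signals were those of MAS5, the expression algorithm of the array's maker, in arbitrary units. Signals below 144.7, the 25th percentile of the table, were raised to that floor before log2, and the tests were limited to probe sets with a state whose duplicates both lay above the table's median of 583.1. This left 24865 probe sets, and 11 of the 18 belonging to these genes, from 6 of the 9. Those were 5 of the 6 Tgm2 probe sets, both of Rdh10, 1 of the 2 of Rarg, and the single ones of Aldh1a1, Dhrs3 and Rara. Rbp2, Rdh7 and the 3 Aldh1a3 probe sets did not pass. A probe set that passed only through the state where it was bright had to differ between states, so no summary over the tested ones is given as support.

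The epithelial markers were bright in every state, and their 9 genes summed to 1141970 and 1151798 in Bt/Bl, between 1009889 and 1109946 in Bt, between 1224707 and 1475332 in Bl, and between 1107406 and 1260024 in GF. The GF pool stood apart from the other states and from its description as male. Xist, which is made from the inactive X of female cells, measured 3752.9 to 11176 on the colonized GeneChips, against 17157 and 22762 in GF, whereas Eif2s3y of the Y chromosome measured 3200.9 to 5656.8 on the colonized GeneChips, against 71.3 and 614.4 in GF. The Y-linked Kdm5d (145.2 to 1159.5 on the colonized GeneChips, against 178.5 and 300.7 in GF) and Uty (57.0 to 2033.2, against 831.5 and 1112.8 in GF) were dim and overlapped. For Kdm5d the overlap came from Bt GeneChip 9443 alone, the other colonized values being at least 867.6. Of 11 small intestinal markers on the table, 4 (Fabp6, Apoa1, Apob and Enpep) were higher on both GF GeneChips than on any colonized one, and 1 was lower. Fabp6, the ileal bile acid-binding protein, measured at most 1798.3 in the colonized states, against 68029 and 95108 in GF, although the summed list, which Fabp2 dominates, overlapped (630126 to 1072175 in the colonized states, against 735896 to 855865 in GF). The plasma cell transcripts Igha (113964 and 95694 in GF) and Jchain were highest in GF as well. The 8 immune markers, a sum that Igha dominates, gave 17883 to 62381 in the colonized states, against 112734 to 129394 in GF. Of the 8, only these 2 were higher on both GF GeneChips than on any colonized one. Of the 4 large intestinal markers, Aqp8 alone was lower on both GF GeneChips (10169 and 14517) than on any colonized one (33810 to 49985). Of the 4 goblet cell markers, 2 were lower on both GF GeneChips. They were Muc2 (28272 and 30154, against 33935 to 89921) and, by a small margin, Clca1 (33547 and 35968, against 36004 to 85225). No marker of these 2 lists was higher on both. No marker was at 0 on any GeneChip. The part of these differences in the results against GF was not tested. For the genes the account turns on, fold changes between colonized states are given as well. They do not use GF signals, although all 8 GeneChips share the estimate of the spread behind their SE. The colonized pools also differed. Xist gave 7541.1 and 11176 in Bt/Bl, 4907.6 and 5085.8 in Bt, and 4404.7 and 3752.9 in Bl, whereas Eif2s3y overlapped between these states. Igha gave 49896 and 34067 in Bt/Bl, 12171 and 13110 in Bt, and 25565 and 27712 in Bl. The part of this in comparisons between colonized states was not tested. In dissected tissue, fewer cells of a type and less RNA per cell cannot be told apart.

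With limma and a Benjamini-Hochberg adjusted p under 0.05, 3 of the 11 tested probe sets were past the threshold in Bt against GF, where 0.169% of all tested probe sets were, and 3 in Bt/Bl against GF, where 0.197% were. All of these belonged to Tgm2, and all were higher. None was past it in Bl against GF (0.137% of all), in Bt/Bl against Bl (0.0563%), in Bt/Bl against Bt (0.0483%) or in Bt against Bl (0.0442%). Since these contrasts also served to choose the genes, nothing is read from the counts. Duplicates of the compared states did not overlap for 7 of the 11 probe sets in Bt against GF (40.0% of all tested probe sets), for 7 in Bl against GF (41.3%), for 7 in Bt/Bl against GF (41.0%), for 7 in Bt/Bl against Bl (42.7%), for 6 in Bt/Bl against Bt (43.0%) and for 6 in Bt against Bl (38.0%). Such separation of duplicate pairs was common throughout the table.

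Rbp2, the intracellular carrier of retinol in absorptive enterocytes, lay at the bottom of the table in every state. Its single probe set 1422846_at gave 143.8 and 164.8 in Bt/Bl, 63.3 and 123.6 in Bt, 174.3 and 225.9 in Bl, against 129.7 and 93.7 in GF. At 5 of 8 GeneChips it was at or under the floor, and none reached the filter. Both Bl values were the highest, but the range of the whole gene, 63.3 to 225.9, lay in the part of the scale where signals have no order. The GF GeneChips, which carried the bright small intestinal Fabp6 and Apoa1, lay within the range of the colonized ones for Rbp2.

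Of the retinol dehydrogenases, Rdh10 was measured well and Rdh7 was not. Rdh10 catalyzes the first, rate-limiting step from retinol to retinal. Its brighter probe set, 1426968_a_at, gave 8167.0 and 7784.6 in Bt/Bl, 4623.5 and 6805.7 in Bt, 6429.0 and 8233.4 in Bl, against 5156.7 and 5207.0 in GF. Both Bt/Bl values and both Bl values exceeded both GF values, while the Bt values straddled them. The log2 fold change was 0.62 in Bt/Bl against GF and 0.49 in Bl against GF (SE 0.28 each), or 1.54-fold and 1.40-fold higher.

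The second Rdh10 probe set, 1460632_at, gave 4010.0 and 2640.4 in Bt/Bl, 1951.2 and 2362.5 in Bt, 1811.5 and 2736.0 in Bl, against 2261.7 and 1826.0 in GF. Here the Bt/Bl values were again above both GF values, but the Bl values overlapped them. The log2 fold change was 0.68 in Bt/Bl against GF and 0.13 in Bl against GF (SE 0.44 each). Between colonized states, Bt/Bl exceeded Bt by 0.51 and 0.60 on the 2 probe sets, without overlap on either. None of these was past the threshold.

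Rdh7, a short-chain dehydrogenase acting on retinol and on steroids, disagreed between the duplicates of one pool. Probe set 1448723_at gave 58.0 and 166.9 in Bt/Bl, 112.4 and 1234.6 in Bt, 1250.5 and 127.4 in Bl, against 42.8 and 285.3 in GF. One Bt and one Bl GeneChip thus read 1234.6 and 1250.5 while their partners lay under the floor. The larger duplicate was 9.82 times the smaller in Bl and exceeded that ratio in Bt, so no state could be ranked.

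Dhrs3, which reduces retinal to retinol and is itself induced by retinoic acid, was present in all states at similar signals. Probe set 1448390_a_at gave 4054.1 and 2795.0 in Bt/Bl, 4395.0 and 3545.4 in Bt, 6085.3 and 3298.7 in Bl, against 3803.7 and 2841.6 in GF. Every pair of states overlapped. The log2 fold changes against GF were 0.03 in Bt/Bl, 0.26 in Bt and 0.45 in Bl (SE 0.38 each), the last resting on the 6085.3 of 1 Bl GeneChip. Between colonized states they were -0.41 in Bt/Bl against Bl, -0.23 in Bt/Bl against Bt and -0.18 in Bt against Bl.

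Aldh1a1, the retinal dehydrogenase of many adult epithelia, was bright on all 8 GeneChips and lowest in co-colonized mice. Probe set 1416468_at gave 135014 and 111593 in Bt/Bl, 231852 and 203202 in Bt, 346492 and 246136 in Bl, against 267907 and 234061 in GF. Both Bt/Bl values were below all 6 values of the other states, and the Bt values were just below those of GF, while Bl overlapped GF. The state means were 123304 ± 16561 in Bt/Bl, 217527 ± 20258 in Bt, 296314 ± 70963 in Bl and 250984 ± 23933 in GF (SD, n = 2 GeneChips each).

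On the log2 scale Aldh1a1 in Bt/Bl fell by 1.03 below GF, by 1.25 below Bl and by 0.82 below Bt (SE 0.27 each), that is, 2.04-fold, 2.38-fold and 1.77-fold lower. In Bt alone the difference from GF was -0.21, and in Bl alone it was 0.22. None of the 6 was past the threshold. The level in Bt/Bl was also lower than in Bl and in Bt, and it kept its sign in all alternatives tried, with a range of -1.17 to -0.89 against GF. Aldh1a1 has a close relative, Aldh1a7, whose transcript may share probes with it, and cross-hybridization between them was not tested.

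**Figure D1:**
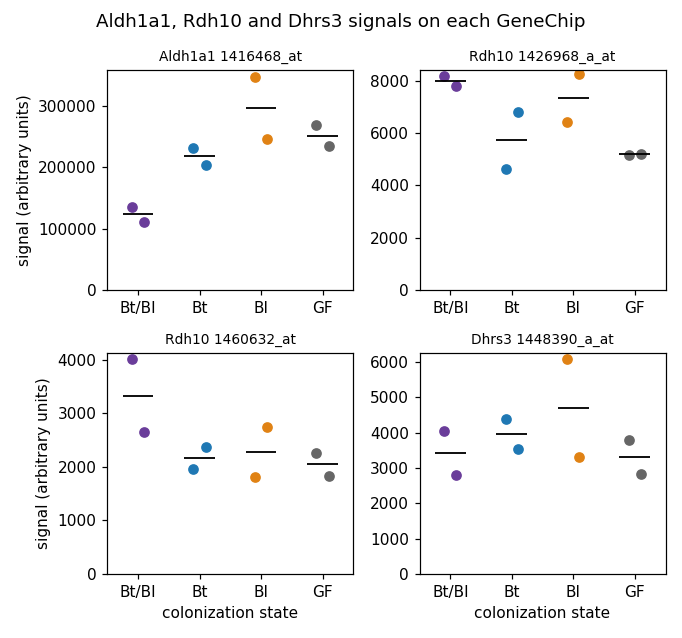
Signal in arbitrary units (linear axis from 0) of Aldh1a1, Rdh10 (both probe sets) and Dhrs3 on each GeneChip of Bt/Bl, Bt, Bl and GF; points are GeneChips and bars the mean of the duplicates. Aldh1a1 in Bt/Bl (135014 and 111593) sits below every other GeneChip, whose lowest value is 203202, whereas Dhrs3 overlaps between all states.

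Aldh1a3, the other retinal dehydrogenase of the set, was dim on all 3 of its probe sets. Probe set 1448789_at gave 37.6 and 589.1 in Bt/Bl, 84.8 and 115.0 in Bt, 722.0 and 574.9 in Bl, against 39.9 and 422.9 in GF. Its Bl duplicates were close to each other and its Bt duplicates were both under the floor, but in Bt/Bl and GF one duplicate was more than 10 times the other. Probe sets 1417642_at and 1427395_a_at ranged from 52.1 to 651.2 and from 91.8 to 319.2 over the 8 GeneChips, and neither had its highest signal in Bl. The 3 probe sets thus did not rank the states alike.

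The receptors Rara and Rarg were dim, and their tested probe sets were higher in either mono-association than in co-colonized mice. Both probe sets passed the filter only through the mono-associations, so this pattern is in part one they were selected for. Rara probe set 1450180_a_at gave 264.3 and 45.1 in Bt/Bl, 837.1 and 671.0 in Bt, 1234.7 and 884.6 in Bl, against 49.7 and 404.8 in GF. All 4 mono-associated values were above all 4 others, and 1 GeneChip each of Bt/Bl and GF lay under the floor. The log2 fold change of Bt/Bl was -2.42 against Bl and -1.94 against Bt, while Bt and Bl exceeded GF by 1.63 and 2.11 (SE 0.90 each).

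Rarg probe set 1419415_a_at gave 329.9 and 214.1 in Bt/Bl, 1132.5 and 1704.7 in Bt, 1880.5 and 1033.1 in Bl, against 1058.8 and 183.8 in GF. Both Bt/Bl values were below all mono-associated values, and the GF duplicates differed 5.76-fold, the higher one lying within the Bl range. Its log2 fold change in Bt/Bl was -2.39 against Bl and -2.39 against Bt (SE 1.02 each). These differences of Rara and Rarg were not past the threshold. With the floor moved to the table's median they shrank to -0.84 and -0.36 for Rara and to -1.26 and -1.25 for Rarg, the higher floor raising every lower signal to 583.1. The second Rarg probe set, 1419416_a_at, was at or under the floor on 6 of 8 GeneChips and reached 895.4 on 1 Bl GeneChip, whose partner (9135) gave 46.0.

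**Figure D2:**
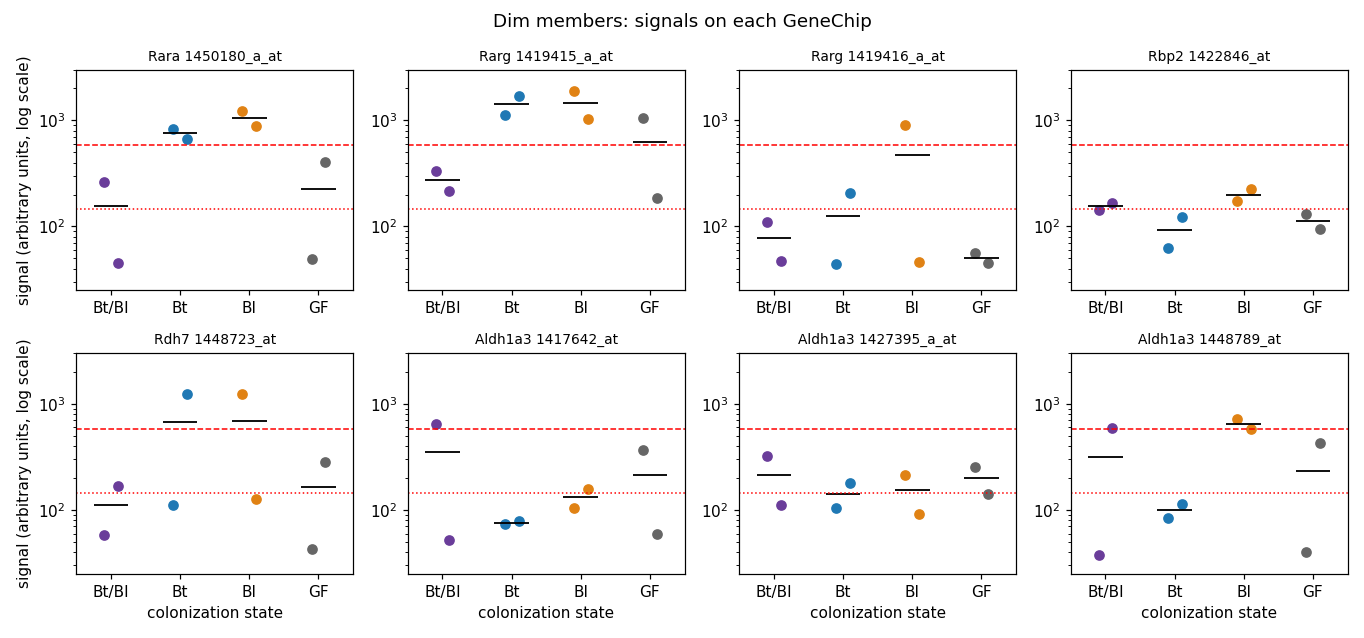
Signal in arbitrary units (log axis) of the probe sets of Rara, Rarg, Rbp2, Rdh7 and Aldh1a3 on each GeneChip of Bt/Bl, Bt, Bl and GF; points are GeneChips, bars the mean of the duplicates, the dotted line the floor of 144.7 and the dashed line the filter at 583.1. Rara and Rarg 1419415_a_at exceed the dashed line on all mono-associated GeneChips and lie below it in Bt/Bl, while duplicates of Rdh7 and Aldh1a3 1448789_at fall on both sides of it.

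Tgm2, the retinoic acid-responsive transglutaminase, was the gene whose probe sets were past the threshold. It was represented by 6 probe sets, of which 3 with the suffix x_at, a mark for probes that may also match other transcripts, were bright. Probe set 1433428_x_at gave 121284 and 109517 in Bt/Bl, 148963 and 107108 in Bt, 86390 and 53314 in Bl, against 35618 and 29057 in GF. Both states with B. thetaiotaomicron lay highest, Bl lay between, and GF was lowest, with overlap only between Bt/Bl and Bt.

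The same order was found on the others. Probe set 1437277_x_at gave 118890 and 99808 in Bt/Bl, 155101 and 74825 in Bt, 56280 and 42432 in Bl, against 28245 and 25301 in GF. Probe set 1455900_x_at gave 99255 and 104709 in Bt/Bl, 150942 and 65659 in Bt, 49721 and 36340 in Bl, against 24237 and 15888 in GF. The Bt duplicates differed 2.07-fold and 2.30-fold on these probe sets, more than those of any other state. Over the 8 GeneChips the 3 probe sets correlated with each other at r = 0.97 to 0.99, as a description of probe sets that share their libraries.

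**Figure D3:**
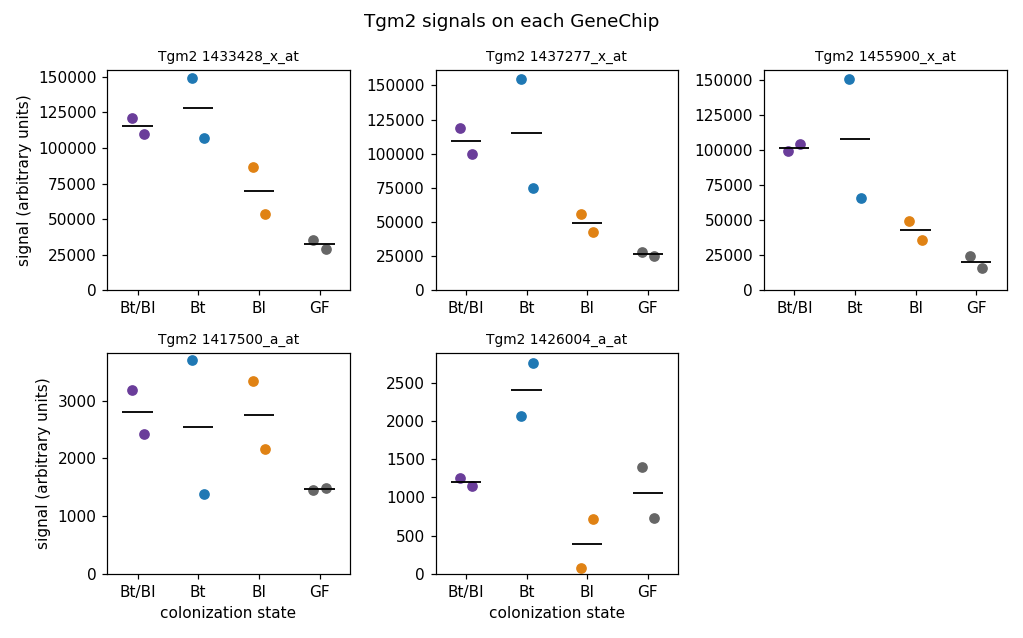
Signal in arbitrary units (linear axis from 0) of the 5 tested Tgm2 probe sets on each GeneChip of Bt/Bl, Bt, Bl and GF; points are GeneChips and bars the mean of the duplicates. On the 3 bright probe sets Bt/Bl and Bt lie highest, Bl between and GF lowest, whereas 1417500_a_at and 1426004_a_at do not repeat that order.

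In Bt/Bl against GF the 3 bright probe sets were higher by 1.84 (SE 0.26), 2.03 (SE 0.29) and 2.38 (SE 0.33) on the log2 scale, or 3.58-fold, 4.07-fold and 5.20-fold. In Bt against GF they were higher by 1.97, 2.01 and 2.34 with the same errors, or 3.93-fold, 4.03-fold and 5.07-fold. Bl exceeded GF by 1.08, 0.87 and 1.12, which was not past the threshold. Between colonized states, Bt/Bl exceeded Bl by 0.76, 1.16 and 1.26, and Bt exceeded Bl by 0.90, 1.14 and 1.23. None of those was past the threshold either, although the duplicates did not overlap. Bt/Bl and Bt differed by -0.13, 0.02 and 0.03, less than 1 SE. Over the alternatives this difference ran from -0.57 to 0.63, that of Bt/Bl against Bl from 0.42 to 1.56 and that of Bt against Bl from 0.55 to 1.83, the extremes coming with 1 GeneChip left out or another scaling.

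On the 3 bright Tgm2 probe sets the co-colonized level was below the sum of both single effects on the log2 scale. The gap was 1.21 (SE 0.37), 0.85 (SE 0.42) and 1.08 (SE 0.46) for 1433428_x_at, 1437277_x_at and 1455900_x_at. On the dimmer probe sets the deviation from the sum was -0.58 (SE 0.73) for 1417500_a_at and 0.66 (SE 1.24) for 1426004_a_at. The shortfall is a description from the chosen genes, uses the GF pool and was not tested. Its SE reflects only duplicates of 1 pool per state. For Aldh1a1 the corresponding value was -1.04 (SE 0.38), and for Rdh10 1426968_a_at it was 0.02 (SE 0.40).

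The dimmer Tgm2 probe sets behaved otherwise. Probe set 1417500_a_at gave 3174.4 and 2419.8 in Bt/Bl, 3703.2 and 1382.4 in Bt, 3341.3 and 2167.1 in Bl, against 1445.2 and 1487.9 in GF. Bt/Bl and Bl were above GF without overlap, but 1 Bt GeneChip was below both GF ones, and the log2 fold changes against GF were 0.92 in Bt/Bl, 0.63 in Bt and 0.88 in Bl (SE 0.51 each). Probe set 1426004_a_at gave 1254.2 and 1151.6 in Bt/Bl, 2062.7 and 2752.0 in Bt, 76.0 and 715.5 in Bl, against 1397.5 and 725.2 in GF, so that Bl was lowest here and Bt/Bl lay within the GF range. The sixth probe set, 1438942_x_at, was at or under the floor on 4 of 8 GeneChips and gave 317.2 and 196.6 in Bt/Bl, 675.8 and 84.0 in Bt, 394.5 and 112.4 in Bl, against 108.0 and 43.3 in GF. On all 5 tested probe sets the fold change was positive in Bt/Bl and in Bt against GF. On 1 of them (1426004_a_at) it was negative in Bl, and in Bt/Bl it was 0.26 (SE 0.88). With 1 GeneChip left out, it fell to -0.22 in Bt/Bl on 1426004_a_at and to -0.09 in Bt on 1417500_a_at.

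**Figure D4:**
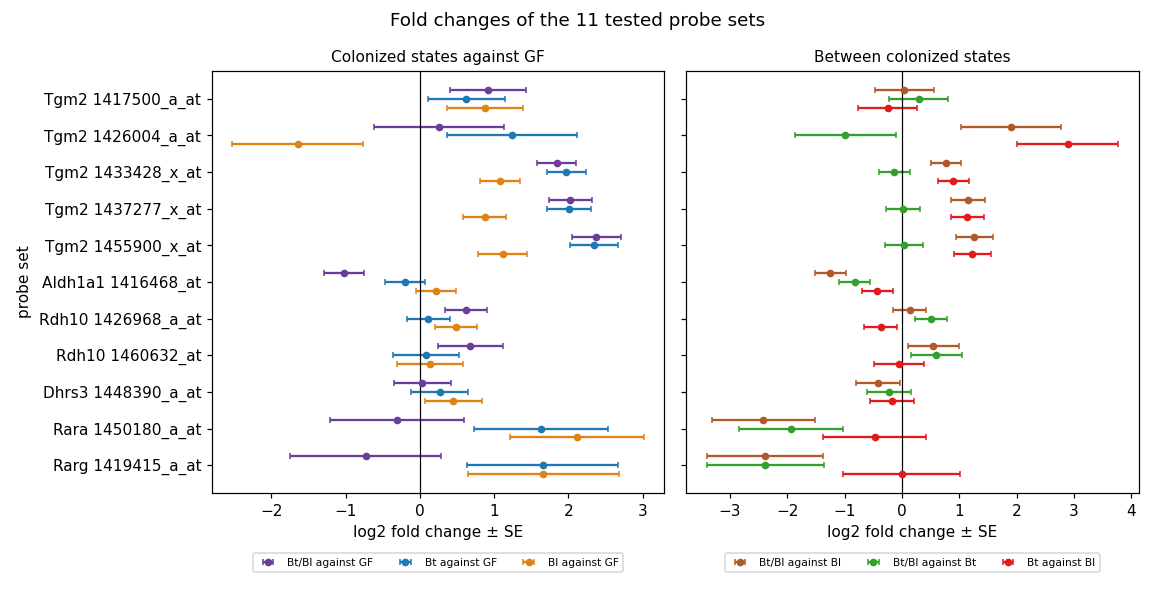
Log2 fold change ± SE (n = 2 GeneChips per state) of the 11 tested probe sets, colonized states against GF on the left and comparisons between colonized states on the right. The 3 bright Tgm2 probe sets lie between 1.84 and 2.38 in Bt/Bl and Bt against GF and near 0 in Bt/Bl against Bt, while Aldh1a1, Rara and Rarg lie below 0 in Bt/Bl against either mono-association.

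Tgm2 is also made by fibroblasts, endothelium and macrophages, and markers of these cells were read beside it. The 6 fibroblast and smooth muscle markers summed to 21235 and 21393 in Bt/Bl, 32145 and 36876 in Bt, 15682 and 21385 in Bl, against 30940 and 38976 in GF. The Bt sums lay within the GF range, and the Bt/Bl sums lay near the higher Bl sum. Acta2, the smooth muscle actin, was highest at 11183 on the Bt GeneChip that also gave the highest signal on each of the 3 bright Tgm2 probe sets, against 5991.6 on its partner. The 3 endothelial markers summed to at most 3414.7 on any GeneChip. Of these, Cdh5 was lowest on both GF GeneChips. It gave 300.3 and 954.9 in Bt/Bl, 264.8 and 801.3 in Bt, 757.2 and 840.9 in Bl, against 77.5 and 62.5 in GF. Pecam1 (1028.7 and 74.1 in GF) and Kdr (1293.4 and 208.4 in GF) did not separate GF from the colonized states. Of the myeloid markers, Adgre1 gave 1332.7 and 1547.5 in Bt/Bl, 2212.8 and 1419.1 in Bt, 1586.8 and 1919.0 in Bl, against 2892.4 and 1658.0 in GF. Lyz2 gave 695.8 and 2069.7 in Bt/Bl, 1885.6 and 1315.6 in Bt, 384.4 and 1118.8 in Bl, against 1432.6 and 1202.4 in GF. The highest signal of each came from 1 GeneChip whose partner lay within the range of other states. Itgax gave 1559.9 and 757.5 in Bt/Bl, 158.2 and 1095.2 in Bt, 194.9 and 811.1 in Bl, against 338.7 and 256.1 in GF. Cd68 gave 661.1 and 507.6 in Bt/Bl, 32.7 and 44.9 in Bt, 638.9 and 242.0 in Bl, against 176.4 and 176.6 in GF. The Cd68 probe set did not pass the filter. These levels are a description, and the part of these cells in the Tgm2 signal was not tested.

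The Tgm2 calls depended on the processing although the direction did not. In Bt against GF and in Bt/Bl against GF the 3 probe sets stayed between 1.48 and 2.94 on the log2 scale in all alternatives, but none was past the threshold with median scaling, 75th percentile scaling, no filter or no intensity trend. With 1 GeneChip left out, at least 1 probe set was past it in 3 of 8 fits for Bt against GF and in 2 of 8 for Bt/Bl against GF, and none was past it without GF 9128, GF 9129, Bt 9130, Bt/Bl 9132 or Bt/Bl 9133, nor, for Bt/Bl against GF, without Bl 9135. Without the lower Bl GeneChip (9135), 1433428_x_at was also past it in Bl against GF, at 1.43, the Bl value then resting on 1 GeneChip assumed to vary like the others.

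**Figure D5:**
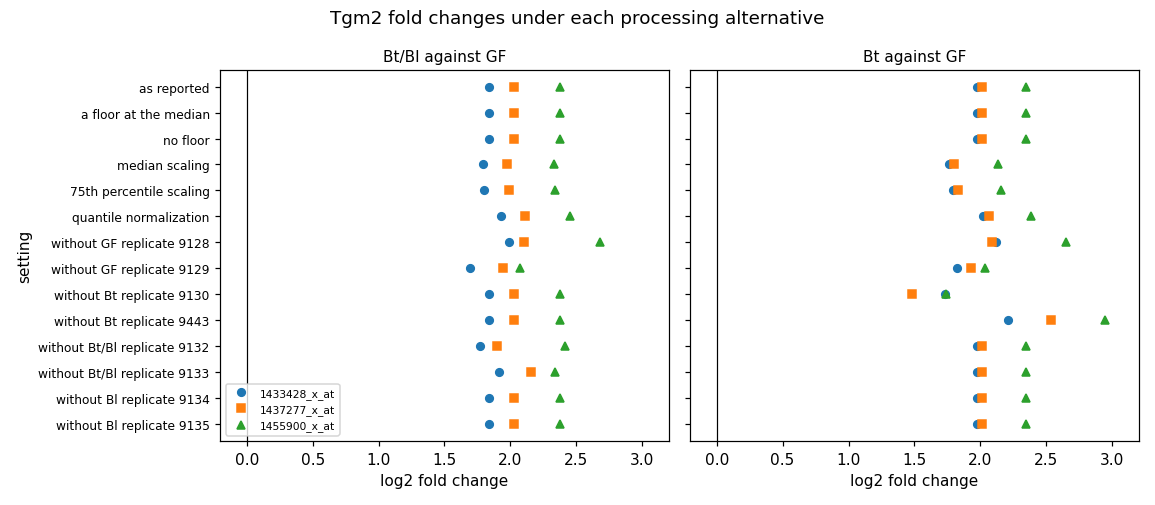
Log2 fold change of the 3 bright Tgm2 probe sets in Bt/Bl against GF (left) and Bt against GF (right) as reported and under the alternatives of floor, scaling and left-out GeneChips. All points lie between 1.48 and 2.94, the lowest without Bt GeneChip 9130 and the highest without Bt GeneChip 9443.

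The genes whose signals followed Tgm2 and Aldh1a1 most closely over the 8 GeneChips were looked up among 8007 other genes with a tested probe set and an SD of log2 signal of at least 0.5. For Tgm2 they were Dusp7 (r = 0.95), Dio3os (r = 0.94), Dapp1 (r = 0.94), B3gnt7 (r = 0.93) and Llcfc1 (r = 0.91). Dusp7 gave 907.9 and 907.7 in Bt/Bl, 1863.0 and 1017.0 in Bt, 1152.8 and 542.0 in Bl, against 47.1 and 136.8 in GF. For Aldh1a1 they were Stx1a (r = 0.99), Usp15 (r = 0.97), Sema5a, Usp5 and Tkfc (r = 0.95 each). Stx1a gave 92.5 and 58.8 in Bt/Bl, 611.2 and 435.9 in Bt, 1457.0 and 764.1 in Bl, against 831.2 and 528.4 in GF. Among the described genes, Aldh1a1 followed Rarg (r = 0.67) and Rara (r = 0.61) more closely than Tgm2 (r = -0.42). These likenesses are a description over 8 GeneChips from 4 pools, on signals raised to the floor. Stx1a and Usp15 were under the floor on both Bt/Bl GeneChips, and Dusp7, Dapp1 and B3gnt7 on both GF GeneChips. The floor thus set how low those genes went, and they passed the filter through states where they were high. The same search for Rbp2, over 8008 genes, gave Ccr4, Cpne6 and Krtap19-1 (r = 0.93 each), Dnhd1 (r = 0.92) and Fam170b (r = 0.91), but 5 of the 8 Rbp2 values sat at the floor, so that this likeness rests on the other 3.

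Promoters from RefSeq (assembly GRCm38.p6), 300 bases each, were matched by symbol for 6 of the 9 genes, 14 promoters in all. Tgm2, Rdh10 and Aldh1a3 had none to match. The core element bound by retinoic acid receptors, AGGTCA, was searched on both strands and was present in 4 of the 14, belonging to Rbp2, Rdh7, Rara and Rarg, and in 16.3% of all 32851 promoters of the table. Its direct repeat with a spacer of 5 bases was in none of the 14 and in 3 of all promoters. Aldh1a1 and Rarg are shown as examples of genes whose mean signal (for Rarg, on its tested probe set) was lower in Bt/Bl than in each other state. The 250 bases before the transcription start are printed, with that element in capitals for Rarg (its reverse strand form) and, for Aldh1a1, with the CCAAT box and the octamer ATGCAAAT in capitals, 2 elements that were present in 37.4% and 1.74% of all promoters. These windows were picked because they hold an element in capitals. The other promoter of each gene among the 14 held none in those bases and is not printed. The CCAAT box and the octamer were marked only for Aldh1a1, whose promoters hold no AGGTCA. The Rarg window is chr15:102257523-102257772 on the minus strand, and the Aldh1a1 window is chr19:20601718-20601967 on the plus strand.
Rarg: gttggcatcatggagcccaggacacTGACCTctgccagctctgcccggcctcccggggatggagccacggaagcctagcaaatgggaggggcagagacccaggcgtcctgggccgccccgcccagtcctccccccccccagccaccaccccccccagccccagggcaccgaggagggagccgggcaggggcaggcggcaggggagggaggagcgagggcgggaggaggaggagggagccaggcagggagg
Aldh1a1: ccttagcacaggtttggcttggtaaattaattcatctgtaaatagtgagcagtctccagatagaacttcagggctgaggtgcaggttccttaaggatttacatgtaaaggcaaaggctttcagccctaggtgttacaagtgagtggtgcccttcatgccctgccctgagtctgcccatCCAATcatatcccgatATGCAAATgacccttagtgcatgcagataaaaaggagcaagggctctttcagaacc
A match is a description of these letters and not evidence of binding.

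The other genes of the pathway were taken from a list of 51 in 8 roles, of which 46 were on the table and 34 had a tested probe set, 49 probe sets in all. Of these 49, 2 were past the threshold of limma's test in Bt/Bl against GF, both lower, and none in the other 5 comparisons. At an unadjusted p under 0.05 there were 9 in each of Bt/Bl against GF, Bt against GF, Bl against GF and Bt/Bl against Bl, 8 in Bt/Bl against Bt and 7 in Bt against Bl. The 9 were 18.4% of the 49. Of all tested probe sets, 7.39% were under that p in Bt/Bl against GF and 9.49% in Bt against GF. That share was 11.7% in Bl against GF and 11.8% in Bt/Bl against Bl. The 8 were 16.33% of the 49, against 10.48% of all, and the 7 were 14.29%, against 11.89% of all. In Bt/Bl against GF the 9 included all 4 probe sets of Ttr, 1451580_a_at higher and the others lower. The 9 there were therefore not 9 separate genes. The median log2 fold change of the 49 was -0.33 in Bt/Bl, -0.07 in Bt and -0.14 in Bl against GF, where the medians of all tested probe sets were 0.01, 0.02 and 0.05.

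Lpl, lipoprotein lipase, which frees fatty acids from lipoproteins and can also hydrolyze retinyl esters, was lower in co-colonized mice. Its probe set 1415904_at gave 2355.0 and 2576.1 in Bt/Bl, 7390.0 and 5927.9 in Bt, 4536.1 and 7911.5 in Bl, against 9110.7 and 9731.1 in GF. The log2 fold change in Bt/Bl against GF was -1.93 (SE 0.32, adjusted p = 0.0139), 3.82-fold lower, and the Bt/Bl values were below all others. Against Bl and Bt it was -1.28 and -1.43, with adjusted p = 0.16 and 0.14. The call held in 5 of 17 alternatives, with adjusted p from 0.0176 to 0.37.

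Ttr, transthyretin, which carries the retinol-binding protein complex in plasma, had 1 of 4 probe sets past the threshold. Probe set 1454608_x_at gave 4623.7 and 2000.5 in Bt/Bl, 7935.2 and 6408.9 in Bt, 7353.2 and 3742.6 in Bl, against 15250 and 13592 in GF. The log2 fold change in Bt/Bl against GF was -2.24 (SE 0.39, adjusted p = 0.0232), and the call held in 1 of 17 alternatives, with adjusted p from 0.0301 to 0.55. The other Ttr probe sets gave 2.54, -1.30 and -1.65 in that comparison with adjusted p of at least 0.49, so they did not share a sign. Lpl and this Ttr probe set were brightest in the GF pool, and between colonized states 1454608_x_at gave -0.79 in Bt/Bl against Bl and -1.23 in Bt/Bl against Bt, with adjusted p = 0.45 and 0.28.

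In the other roles no probe set passed, and the one with the largest difference from GF is given for each. Aldh1a7, the relative of Aldh1a1, gave 1616.5 and 1571.7 in Bt/Bl, 2191.5 and 3686.8 in Bt, 1937.1 and 2734.1 in Bl, against 5085.6 and 5700.9 in GF, with a log2 fold change of -1.76 in Bt/Bl against GF (SE 0.41, adjusted p = 0.16). It was highest in GF, without overlap with any colonized state, whereas Aldh1a1 overlapped between Bl and GF. Scarb1, a receptor for lipoproteins and carotenoids, gave 2.43 in Bt against GF (SE 0.92, adjusted p = 0.39) on 1437378_x_at, which read 58.7 and 935.5 in GF. Its other tested probe sets gave -1.60 and 1.56 in that comparison. Rdh5, a retinol dehydrogenase known from the eye, gave 2.01 in Bl against GF (SE 1.16, adjusted p = 0.53). Cyp26a1, which degrades retinoic acid and is induced by it, gave 1.49 in Bt/Bl against GF (SE 1.19, adjusted p = 0.87). Its signals were 765.2 and 875.8 in Bt/Bl, 183.5 and 1334.2 in Bt, 128.7 and 1083.1 in Bl, against 60.9 and 585.2 in GF, so that only the Bt/Bl duplicates were close to each other. Rxra, the partner of the retinoic acid receptors, gave 0.87 in Bl against GF (SE 0.75, adjusted p = 0.69) on 1425762_a_at and -0.18 on 1454773_at. Hic1, a transcription factor induced by retinoic acid, gave -1.55 in Bt/Bl against GF (SE 0.78, adjusted p = 0.72).

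Of the other transglutaminases, 2 had a tested probe set. Tgm3 probe set 1440150_at was higher by 3.82 in Bt against GF (SE 1.04, adjusted p = 0.22) and by 0.32 in Bt/Bl against GF (adjusted p = 0.99), and Bt/Bl against Bt gave -3.49 (adjusted p = 0.27). F13a1, the coagulation factor made by macrophages, was higher by 1.39 in Bt against GF (SE 1.07, adjusted p = 0.74). Neither was past the threshold in any comparison.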

How the data were processed

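Deposited values were MAS5 signal intensities per probe set of the whole-genome mouse GeneChip, which the authors had scaled per GeneChip (MAS5 per the submitters' processing notes; version not given in the sources used here). No detection calls were used, and 0 columns of per-sample values were left out. The custom glycogene array was not used here, since none of the 9 genes is annotated on it. Probe sets were named from the platform annotation, with 34958 of 45101 having 1 gene. The members, the gene lists and the tests were chosen with earlier results of these data known.

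Signals were floored at 144.7, transformed to log2 and filtered (both GeneChips of 1 state above 583.1). All 8 GeneChips were fitted in limma 3.58.1 (R 4.3.3) with an intensity trend, leaving 4 residual degrees of freedom, and p-values of 6 comparisons were adjusted by Benjamini and Hochberg over 24865 probe sets, separately in each comparison. The fit was tested on simulated data. With 2 against 2 GeneChips an exact permutation cannot go below p = 0.333 two-sided, and the number of GeneChips limits the precision. No block was used, since the GeneChip numbers pair no samples.

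Every probe set of the 9 genes is named. Of the other retinoid genes, those past the threshold are named, and otherwise the one with the largest log2 fold change against GF in each role. A gene is represented by its brightest probe set in searches for like genes. Alternatives were the floor, the filter, the scaling, the trend, the GeneChips in the fit, each GeneChip left out, and the study's bound on the fold change without detection calls. A fit without the GF GeneChips was added after seeing the data. Promoters were RefSeq's (GRCm38.p6).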

Additional observations from a re-analysis of the deposited data

Results flagged for a closer look

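For 2 of the 11 tested probe sets, the difference made by 1 species ran in opposite directions without and with the other species, every GeneChip of the compared states being separated both times. For Rara (1450180_a_at) B. thetaiotaomicron was associated with 1.63 (log2) in Bt against GF and with -2.42 in Bt/Bl against Bl, and B. longum with 2.11 in Bl against GF and with -1.94 in Bt/Bl against Bt. The gap between these effects was -4.05 (SE 1.28) in both cases. For Rarg (1419415_a_at) B. thetaiotaomicron was associated with 1.66 in Bt against GF and with -2.39 in Bt/Bl against Bl, a gap of -4.05 (SE 1.44). The difference was not tested. Both probe sets passed the filter through the mono-associations, where they were high, so the pattern is in part one they were selected for. With the floor at the median, Rara against GF was 0.36 in Bt and 0.84 in Bl, and Rarg in Bt against GF ran from 0.39 to 2.92 with 1 GeneChip left out. Of all 24865 tested probe sets, 9.17% showed such a reversal for B. thetaiotaomicron and 9.15% for B. longum. Rara was at or under the floor on 2 of the 8 GeneChips, 1 of Bt/Bl and 1 of GF.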

How the results depend on the processing

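The count of probe sets of the 9 genes past the threshold was 3 in Bt against GF and 3 in Bt/Bl against GF. Both became 0 with no filter, median scaling, 75th percentile scaling or no intensity trend. They stayed at 3 with the other floors, the higher filter, quantile normalization, the 4 compared GeneChips alone and the methods' bound. The last 2 settings also called more over all probe sets. In Bt against GF they called 807 of 19558 and 606 of 24865, against 42 of 24865 as reported. In Bt/Bl against GF they called 55 of 19087 and 316 of 24865, against 49 of 24865. With 1 GeneChip left out they ranged from 0 to 2 in Bt against GF, Bt/Bl against GF, Bl against GF and Bt/Bl against Bl, and from 0 to 1 in Bt against Bl, the calls in comparisons with Bl coming without Bl 9135 (Tgm2 1433428_x_at, Aldh1a1 and a Rarg probe set that then passed the filter through 1 GeneChip), where Bl is 1 GeneChip assumed to vary like the other states. The count in Bt/Bl against Bl was 1 with only the 4 GeneChips compared (740 of 20794 over all). The methods' bound gave 1 in Bt against Bl (966 of 24865 over all). For other retinoid probe sets in Bt/Bl against GF, the count of 2 became 0 with the floor at the median, no filter, median scaling, 75th percentile scaling or no trend, 1 with the 75th percentile filter, quantile normalization or only the 4 GeneChips, and 4 with the methods' bound, and 0 to 1 with 1 GeneChip left out. Elsewhere the count of 0 became 1 with only the 4 GeneChips in Bt against GF, Bt/Bl against Bt (816 of 19979 over all) and Bt against Bl (964 of 21177 over all). It became 2 and 1 with the methods' bound in Bt/Bl against Bl (774 of 24865 over all) and Bt against Bl. The cause was not tested. The fit without the GF GeneChips, chosen after seeing the data, changed no count of either list. Of 66 pairs of probe set and comparison, 45 kept the sign of the fold change under every alternative and 21 did not, and no called value was reversed. Median scaling moved the median of all tested probe sets in Bl against GF to -0.32, against 0.05 as reported. Over all tested probe sets, 42 were past the threshold in Bt against GF (22 higher) and 49 in Bt/Bl against GF (25 higher), and with median or 75th percentile scaling 20 (6 higher) and 12 (6 higher). Signals near the floor (Rbp2, Rdh7, Aldh1a3, Rara) limit those genes, and arrays give no counts.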
